A study of Zea mays with 19 samples.

Results

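The deposited small RNA table of germinating maize embryos held 160 unnamed candidate sequences of 23 bases or longer, called long candidates here, out of 528 sequences in all. They were taken by rule as every entry whose name begins with PC, in place of a miRNA name, and whose length was 23 bases or more, with the entries of a shared sequence added together. The remaining sequences were 121 shorter candidates of 20 to 22 bases and 247 sequences that carried a miRNA name. The long candidates came from 200 entries on 198 hairpin precursors spread over the 10 maize chromosomes.

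The libraries came from embryos of 2 maize lines, Yu82, which germinates early, and Yu537A, which germinates late, and both lines derive from Yuzong5. Each sample pooled the embryos of 5 seeds. Small RNAs were read after imbibition in 6 groups of 3 libraries. Yu82 was sampled at 6 h and 53 h without GA3. Yu537A was sampled without GA3 at 6 h, at 53 h and again at 78 h, and once more at 53 h after GA3, a gibberellin, at 400 mg/L. A protocol mentions GA3 pretreatment of Yu537A seeds and does not tie it to groups. Only the GA3 group is named as treated in the design text, so the other late-line groups were taken as untreated. In addition, 1 degradome library, made to read the 5′ ends left when transcripts are cut, stood in no group.

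In plants, most microRNAs are made by DICER-LIKE1 from hairpins, often begin with U, and act through ARGONAUTE1 by cutting or silencing messenger RNAs. The longer small interfering RNAs are made by DICER-LIKE3, usually from double-stranded RNA that RNA polymerase IV and RDR2 produce at transposons and other repeats. Those that begin with A are preferentially bound by the ARGONAUTE4 group, which guides DNA methylation to matching loci. Long near-perfect hairpins of inverted repeats can also be processed by DICER-LIKE3. This is background, and none of these proteins was measured here.

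The long candidates were nearly uniform in length and in first base. Of the 160, 157 had 24 bases, 2 had 23 and 1 had 25. An A stood first in 153 of 160 (95.6%), and sequences with a first A held 96.1% of the long candidates' counts. Among the shorter candidates 23.1% began with A and 66.9% with T, written for U in the table. Among the named sequences 14.6% began with A and 55.1% with T. At the other end, C was the last base of 97 long candidates (60.6%), and the median GC content was 50.0%. Length was part of the rule, whereas the bases were not.

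The 10 long candidates with the highest mean level are printed first, 5′ to 3′ as the table writes them, because most of the values given further on refer to them. The capital marks the first base.
PC-3p-6351_557: Agcaccgttggatgtggagggtgt
PC-3p-13249_267: Aaaaccccctgacacagcaccgtt
PC-3p-10232_352: Aatccccctctggattggtgtaac
PC-5p-13186_269: Atctggtgcgtttatgagcaatcc
PC-3p-11302_318: Aacgagttaggaacgtgggtaccc
PC-3p-14644_240: Atccccctctggattggtgtaacc
PC-5p-13694_258: Acataactaattgtgggccgtgcc
PC-3p-17353_199: Atcgtattaggaacgtgggtaccc
PC-3p-18013_191: Atcgtattagaaacgtgggtaccc
PC-3p-20006_169: Atgtccgacggtcctgtaggaggc
All 10 began with A. Several were variants of one another, such as PC-3p-17353_199 and PC-3p-18013_191, which differ by A11G when the second is read as the reference and positions are counted from 1 at the 5′ end.

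Many long candidates were copies or near copies of others. Joining sequences that share a run of 14 bases on either strand gave 24 families with 87 members and left 73 alone. Runs of 12 bases gave 22 families with 113 members, and runs of 16 gave 25 families with 72. The largest family at 14 bases had 10 members, led by PC-3p-10232_352. The first precursor entries of these members lie on 6 chromosomes. The next had 8 members, led by PC-3p-6351_557, with first entries on 7 chromosomes, and the third had 7, led by PC-3p-20006_169. Second entries of members in both of the larger families lie on further chromosomes, which these numbers leave out. Pairs that differ at a single base numbered 24, pairs that differ at 2 bases numbered 22, and 58 long candidates stood in such a pair. Shifted copies with an overlap of 12 or more bases made 25 pairs in the same orientation and 20 in the opposite orientation.

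Short strings of letters recurred among the long candidates, and they were picked out after the sequences had been seen. TCCGACGG, read on both strands, was in 21 of the 160 (13.1%), in 3 of the 121 shorter candidates (2.5%) and in 0 of the 247 named sequences. ACGTGGG was in 11 long candidates (6.9%) and GGCGCCGAG in 7 (4.4%), and both were in 0 shorter candidates and 0 named sequences. AATCCCC was in 23 long candidates (14.4%), 20 shorter candidates (16.5%) and 0 named sequences. No long candidate held 2 of these strings, and 98 held none. Members with each string are printed next, with the string in capitals. A match describes letters and is no evidence of a binding site.
PC-3p-20006_169: atgTCCGACGGtcctgtaggaggc
PC-3p-11342_316: atcTCCGACGGcctcgtacagagc
PC-5p-24836_130: atcTCCGACGGctctgtacgaggc
PC-5p-26101_122: atcTCCGACGGctgtgtacgaggc
PC-3p-30304_99: ataaccttatgTCCGACGGttgcc
PC-3p-11302_318: aacgagttaggaACGTGGGtaccc
PC-3p-20434_165: acttatcgtaatagaaACGTGGGt
PC-3p-28610_108: acttaacatgttagaaACGTGGGt
PC-3p-21310_157: aagatctatGGCGCCGAGgtacgt
PC-3p-24133_135: acagcctatGGCGCCGAGcttcgt
PC-5p-66426_26: acgtacCTCGGCGCCatagatctt
PC-3p-10232_352: AATCCCCctctggattggtgtaac
PC-3p-28590_108: AATCCCCttcattccacttgctcc
The place of a string was not fixed within its set. TCCGACGG stood nearer to the 3′ end in PC-3p-30304_99 than in the other sequences printed with it, and PC-5p-66426_26 held GGCGCCGAG as its reverse complement. In PC-3p-11302_318 the ACGTGGG string stood nearer to the 5′ end than in PC-3p-20434_165 and PC-3p-28610_108.

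The precursors of the long candidates were hairpins with few unpaired bases within the small RNA, as were those of the shorter candidates. Pairing along the rest of the hairpin was not counted. The deposited hairpin length had a median of 140 bases (58 to 230), the deposited folding energy a median of -91.75 (unit not stated), and the minimal folding free energy index a median of 1.3. For the shorter candidates the medians were 138 bases, -81.4 and 1.3. For sequences on named maize precursors they were 123.5 bases, -65.9 and 0.9. In the deposited folds every one of the 200 long-candidate entries and every one of the 154 shorter-candidate entries had 4 or fewer unpaired bases within the small RNA, against 51.1% of the 409 named entries that could be placed. No base was unpaired in 21.5% of the long-candidate entries, 17.5% of the shorter and 4.6% of the named. The bound of 4 in both candidate kinds is a feature of the table, and the rule by which the authors chose candidates was not known. On the hairpin, 115 long candidates were assigned to the 3p arm and 45 to the 5p arm.

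The hairpins held more long candidates than the entries say. Only 3 of the 198 loci listed a second sequence in the table. Searched letter for letter on either strand, however, 74 of the 200 precursor entries held 2 or more long candidates and 18 held 5 or more. A long candidate found only as its reverse complement is counted as held, so 1 stretch can count for both members of a reverse complement pair. The reverse complement of a long candidate stood in its own precursor in 20 of 160 cases. The fullest were 2 precursors on chromosome 8 with 10 long candidates each, and the one assigned to PC-3p-6351_557 is printed whole. It lies at chr8:111652454-111652629 on the plus strand, in coordinates of the authors' table, whose genome build was not stated, and no gene annotation was joined to it. The capitals mark PC-3p-6351_557 in the 3′ arm and its exact reverse complement in the 5′ arm.
precursor of PC-3p-6351_557: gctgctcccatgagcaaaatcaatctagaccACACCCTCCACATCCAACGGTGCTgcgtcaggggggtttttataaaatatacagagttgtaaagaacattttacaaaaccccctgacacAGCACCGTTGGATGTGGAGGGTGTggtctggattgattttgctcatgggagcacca
The 2 long candidates with the highest mean level are both found letter for letter in this hairpin, although the entries of PC-3p-13249_267 assign it to other precursors, on chromosomes 3 and 8. PC-3p-13249_267 covers bases 106 to 129 and PC-3p-6351_557 covers bases 121 to 144, so they overlap. PC-3p-17616_196, at bases 119 to 142, is PC-3p-6351_557 moved by 2 bases. On the other arm PC-5p-41725_62 covers bases 27 to 50 and PC-5p-90061_13 covers bases 29 to 52. PC-3p-6351_557 has a second entry on chromosome 7, and a read that matches several copies cannot be assigned to 1 of them.

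**Figure D1:**
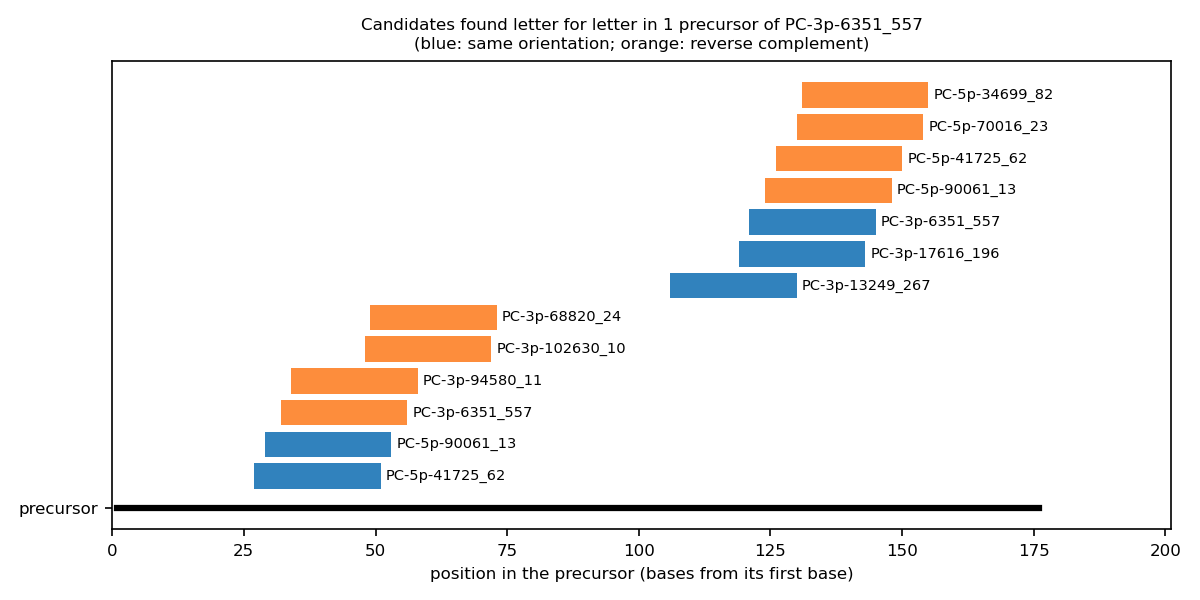
Long candidates found letter for letter in the chromosome 8 precursor assigned to PC-3p-6351_557, 176 bases long. The horizontal axis is the position in the precursor in bases, each bar is 1 match, blue in the same orientation and orange as the reverse complement. The 13 matches of 10 candidates form overlapping stacks on the 2 arms.

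Of the long candidates, 2 pairs were exact reverse complements of each other over their whole length.
PC-3p-24133_135: acagcctatggcgccgagcttcgt
PC-5p-93151_12: acgaagctcggcgccataggctgt
PC-3p-21310_157: aagatctatggcgccgaggtacgt
PC-5p-66426_26: acgtacctcggcgccatagatctt
Each of the 4 begins with A. The named precursors of the members of a pair lie on different chromosomes.

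Of the 200 entries, 165 (82.5%) had a precursor that contains the small RNA letter for letter, and the other 35 differed from it at 1 base. The same share was 68.8% for the shorter candidates and 77.8% for the named sequences. In 26 of 160 long candidates no own precursor matched exactly. By the line in which they were listed, these were 4 of the 49 long candidates listed in both lines (8.2%), 15 of the 89 listed in late-line libraries alone (16.9%) and 7 of the 22 listed in early-line libraries alone (31.8%). Depth differs between the lines, as the next values show, and its part in these shares was not tested.

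Depth and listing moved together and bear on every value that follows. The libraries held 42958 to 818814 listed counts. The early-line libraries held 906817 counts over 6 libraries and the late-line libraries 3967648 over 12, a 4.38-fold difference in total. A long candidate was listed from 8 counts upward, apart from 16 on a lone entry with values down to 4. In the deepest library, replicate 1 of the late line at 53 h, 8 counts are 9.8 CPM by library total (CPM scales counts to a common total) and 131 of the 160 long candidates were listed. In the shallowest, replicate 3 of the early line at 53 h, 8 counts are 186.2 CPM and 0 were listed, and in replicate 3 of the late line at 53 h, with 99068 counts, 0 were listed as well. A long candidate listed at 0 is therefore below the listing level and not shown to be absent. As to tissue, miR166 held 46.1 to 65.8% of the counts in each library and miR156 0.197 to 2.065%. Of the families used as markers of reproductive tissue, miR2118 held at most 0.219%, miR482 at most 0.042%, and miR2275 had no sequence in the table.

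**Figure D2:**
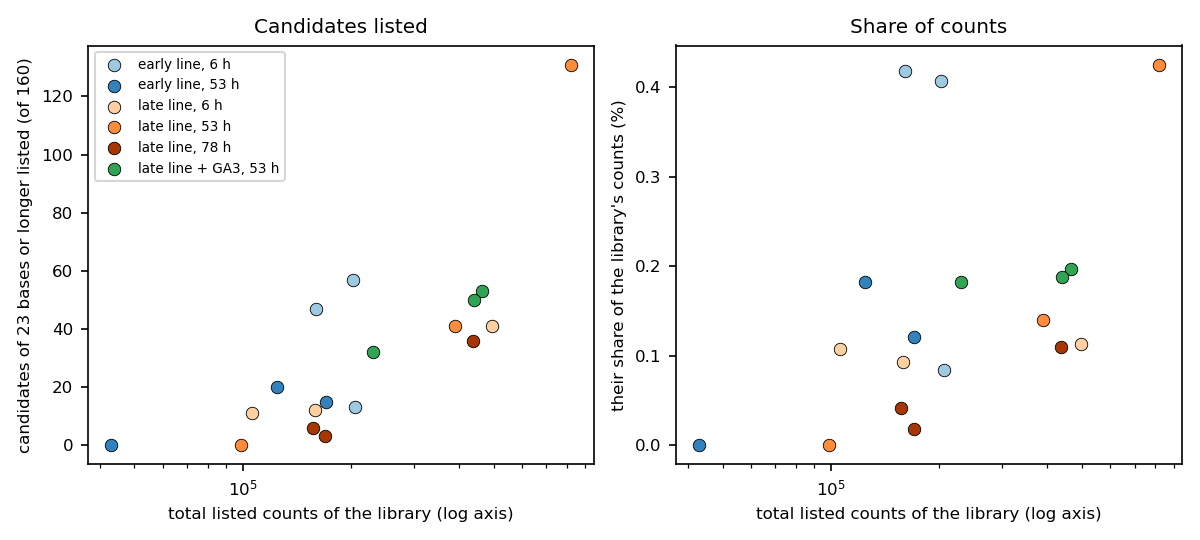
Number of long candidates listed (left) and their share of the library's counts (right) against the total listed counts of each library on a log axis. Each point is 1 of 18 libraries, coloured by group. The deepest library lists 131 of 160 and the 2 with 0 are the shallowest, while 2 early-line 6 h libraries of middle depth have shares as high as the deepest.

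As a whole, the long candidates took a small part of the counts. Of the early-line libraries at 6 h, replicate 1 had 0.407% of its counts in long candidates (exact 95% interval 0.38 to 0.436%), replicate 2 had 0.418% (0.387 to 0.45%) and replicate 3 had 0.0841% (0.072 to 0.0976%). Replicate 3 therefore stood well below the other replicates, although its total of 205757 counts was the highest of the group and its shorter candidates held 0.355% against 0.376% and 0.404%. The intervals cover counting error only, since reads are not independent molecules. They also take an unlisted candidate as 0 counts. An upper limit given for a share of 0% therefore refers to listed counts and is no bound on the share itself. At 53 h the early-line shares were 0.182, 0.121 and 0%, the last with an upper limit of 0.00859%. Late-line shares were 0.108, 0.113 and 0.0932% at 6 h and 0.11, 0.0421 and 0.0182% at 78 h, and at 53 h they were 0.425, 0.14 and 0%, the last with an upper limit of 0.00372%. The 6 h libraries of the late line lay close together, and those at 53 h were spread most.

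The group means of this share were 0.303% ± 0.190 (SD, n = 3) in the early line at 6 h and 0.101% ± 0.0927 (SD, n = 3) at 53 h. In the late line they were 0.105% ± 0.0102 (SD, n = 3) at 6 h, 0.189% ± 0.217 (SD, n = 3) at 53 h, 0.0567% ± 0.0478 (SD, n = 3) at 78 h and 0.189% ± 0.0076 (SD, n = 3) at 53 h with GA3. The 53 h late-line mean rested on replicate 1, with 0.425% (0.411 to 0.44%), and was 0.0701% without it. Leaving out replicate 3, which lists none, gave 0.283% there and 0.152% in the early line at 53 h. Leaving out replicate 3 of the early line at 6 h gave 0.412%. The 3 GA3 libraries lay close together at 0.182, 0.197 and 0.188%, inside the range of the 3 untreated libraries. The shorter candidates held 0.379% ± 0.0247 and 0.472% ± 0.0744 in the early line at 6 h and 53 h; their mean, unlike that of the long candidates, was not lower at 53 h. In the late line the shorter candidates held 0.113% ± 0.0456 at 6 h, 0.159% ± 0.117 at 53 h, 0.175% ± 0.0198 at 78 h and 0.255% ± 0.0951 with GA3 (SD, n = 3 each). These shares were not tested between groups. They also depend on how entries are combined: with the highest entry of each sequence in place of the sum, the long candidates held 0.874% and 0.305% in the early line at 6 h and 53 h. The late line then had 0.249% at 6 h, 0.508% at 53 h, 0.15% at 78 h and 0.496% with GA3.

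At the level that 8 counts mean in replicate 3 of the late line at 53 h, 80.8 CPM by library total, libraries can be compared without the listing limit, apart from the shallowest. At or above that level, the early line at 6 h had 16, 19 and 2 long candidates in replicates 1 to 3, and at 53 h it had 7 and 5 in replicates 1 and 2. The late line had 8, 0 and 4 at 6 h, 9, 2 and 0 at 53 h, 1, 2 and 1 at 78 h, and 4, 2 and 4 at 53 h with GA3. On this scale the 2 highest numbers were those of early-line 6 h replicates 1 and 2. The third replicate of that group lay among the late-line values, so the groups overlap. The order depends on the scaling. The TMM scaling factors used further on ran from 1.08 to 2.13 in the early line and from 0.602 to 1.09 in the late line. In CPM corrected by them, replicate 1 of the late line at 53 h listed the highest number at or above 80.8.

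The counts were concentrated in few sequences. The 10 long candidates with most counts held 33.3% of the 9698 counts of all long candidates, and replicate 1 of the late line at 53 h alone held 35.9%. A long candidate was listed in a median of 2 libraries. Listing in a lone library applied to 51, of which 41 were listed in that deepest library, and 15 were listed in 9 libraries or more.

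PC-3p-6351_557 had the highest mean level and was listed in 15 of 18 libraries. In TMM-scaled CPM, which divides counts by a library total corrected with a scaling factor and is used from here on, it stood at 144, 118 and 121 in the early line at 6 h and at 42.1, 98.5 and 0 at 53 h. In the late line it stood at 157, 71.3 and 249 at 6 h, at 322, 178 and 0 at 53 h, and at 144, 111 and 0 at 78 h. With GA3 it stood at 211, 163 and 235. The highest value was in the deepest library. The 3 GA3 libraries lay above both early-line groups and above the late line at 78 h, and overlapped with the untreated late line at 53 h. The early line at 6 h lay above the early line at 53 h.

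PC-3p-13249_267, whose letters also occur in the printed hairpin, had its highest values in the early line at 6 h, with 259, 228 and 126 CPM. At 53 h the early line gave 93.7, 103 and 0. The late line gave 0, 77.0 and 98.2 at 6 h, 195, 50.5 and 0 at 53 h, 103, 0 and 0 at 78 h, and 82.6, 69.9 and 159 with GA3. Thus the 3 early-line libraries at 6 h all lay above those of the late line at 6 h and at 78 h and those of the early line at 53 h. In the test across all sequences described further on, the differences to the late line at 6 h and to the early line at 53 h did not pass.

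PC-3p-10232_352, of the largest family, stood at 156, 142 and 44.9 CPM in the early line at 6 h and at 103, 56.3 and 0 at 53 h. The late line gave 131, 45.6 and 98.2 at 6 h, 136, 68.4 and 0 at 53 h, 56.9, 0 and 50.6 at 78 h, and 45.4, 78.4 and 102 with GA3. Every pair of groups overlapped. PC-3p-14644_240, which is the same sequence moved by 1 base, was listed in 12 libraries with a highest value of 181 CPM, in the late line at 6 h.

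PC-5p-13186_269, which is in no family, was the long candidate with the highest mean in the early line at 53 h among these 10. It stood at 99.8, 126 and 62.9 CPM in the early line at 6 h and at 145, 169 and 0 at 53 h. The late line gave 0, 28.5 and 0 at 6 h, 66.9, 47.6 and 0 at 53 h, 49.4, 0 and 0 at 78 h, and 82.6, 67.8 and 47.7 with GA3. At 6 h the early-line values all lay above the late-line values.

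PC-3p-11302_318 was the highest of the long candidates listed in the late line alone. It was at 0 in all 6 early-line libraries, where 8 counts correspond to 31.9 to 87.4 CPM. Late-line values were 183, 77.0 and 0 at 6 h, 197, 110 and 0 at 53 h, 106, 0 and 0 at 78 h, and 57.8, 125 and 124 with GA3. The 8 late-line libraries that listed it lay between 57.8 and 197 CPM, above the listing level of at least 5 of the 6 early-line libraries.

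**Figure D3:**
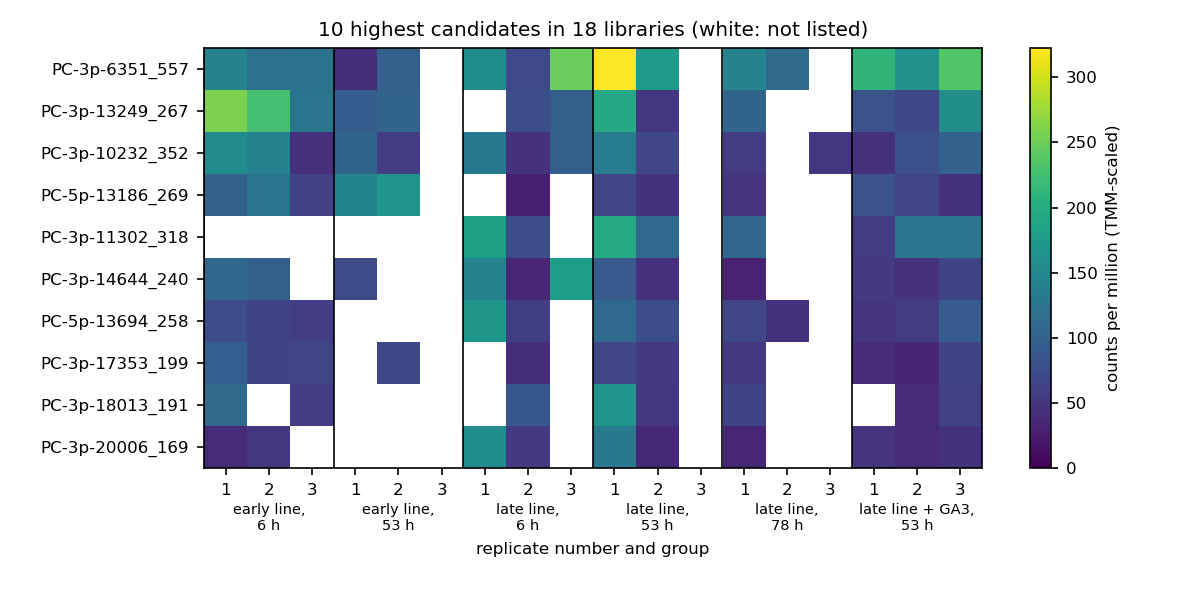
TMM-scaled CPM of the 10 long candidates with the highest mean level in the 18 libraries, grouped by line, time and GA3. White cells are not listed. Replicate 3 of either line at 53 h is white throughout, and PC-3p-11302_318 is white in the 6 early-line libraries.

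Of the remaining 5 in that list, PC-5p-13694_258 stood at 75.8, 65.0 and 58.4 CPM in the early line at 6 h and at 0 in its 3 libraries at 53 h, where 8 counts are 37.5, 37.5 and 87.4 CPM. In the late line it was listed in 9 of 12 libraries, at 46.9 to 170 CPM. PC-3p-17353_199 was listed in 11 libraries and PC-3p-18013_191 in 8. PC-3p-20006_169 was listed in 10, from 34.2 to 157 CPM.

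By line, 49 long candidates were listed in both, 89 (55.6%) in late-line libraries alone and 22 (13.8%) in early-line libraries alone. Of the shorter candidates 40.5% were listed in the late line alone and 24.8% in the early line alone, and of the named sequences 25.5% and 9.7%. The late line had 12 libraries against 6 and 4.38-fold the counts. Without replicate 1 of the late line at 53 h the numbers of long candidates became 41 in both lines, 48 in the late line alone and 30 in the early line alone. Of the 89, 43 were listed in a lone library, 24 in 2 libraries and 14 in 5 or more.

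**Figure D4:**
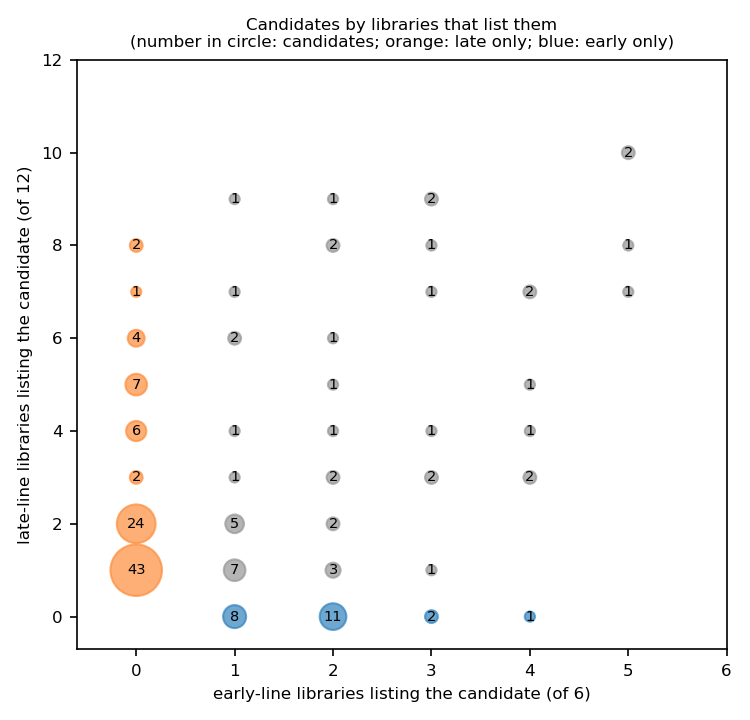
Long candidates by the number of early-line libraries (horizontal axis, of 6) and late-line libraries (vertical axis, of 12) that list them. The number in each circle counts candidates and sets its area. Orange circles are listed in the late line alone, 43 of them in a lone library, blue circles in the early line alone.

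The late-line sequences listed most widely were PC-3p-11302_318 and PC-3p-24133_135, each in 8 of 12 late-line libraries, and PC-3p-40792_64 in 7. PC-3p-24133_135 stood at 105, 42.8 and 90.7 CPM in the late line at 6 h and at 92.4, 26.8 and 0 at 53 h. Its family of 3 was listed in the late line alone, with 192 counts. In the early line PC-5p-34939_81 was the most widely listed of the 22. It stood at 124, 126 and 35.9 CPM at 6 h and at 0, 51.6 and 0 at 53 h, and it was at 0 in all 12 late-line libraries, whose listing level ranged from 15.7 to 105 CPM. At 6 h its values of 124 and 126 CPM lay above the listing level of each late-line library.

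Near-identical sequences were listed in the same class (both lines, late line alone or early line alone) in some pairs and not in others. Of all long candidates, 30.6, 55.6 and 13.8% were in these classes, in that order. How often unrelated long candidates share a class was not tested. Among the 24 pairs that differ at 1 base, 12 had both members in the same class and 8 had 1 member listed in both lines and the other in the late line alone. In 2 pairs the other was listed in the early line alone, and in 2 the members were listed in opposite lines. Those printed next come only from the pairs whose members differ in class, with the differing base in capitals. They are pairs with many counts and the pairs of opposite lines, and they were chosen after their counts had been seen. Pairs within a class were left out, although some also had many counts. For example, PC-3p-13249_267 had 191 early-line and 286 late-line counts, and its A14G variant PC-3p-59480_33 had 11 and 43.
PC-3p-10232_352: aatccccctctggattgGtgtaac
PC-3p-40792_64: aatccccctctggattgAtgtaac
PC-3p-28610_108: acttaacAtgttagaaacgtgggt
PC-3p-45029_54: acttaacCtgttagaaacgtgggt
PC-3p-68356_24: attctaGccccttcaatcctctcc
PC-3p-64031_28: attctaAccccttcaatcctctcc
PC-5p-81139_17: agggcttgttcgTtttggagtgga
PC-5p-111562_9: agggcttgttcgCtttggagtgga
PC-3p-10232_352 had 118 counts in 5 early-line libraries and 234 in 10 late-line libraries, whereas its G18A variant PC-3p-40792_64 had 0 and 166, the latter in 7 libraries. PC-3p-28610_108 had 0 and 158 counts, and its A8C variant PC-3p-45029_54 had 9 and 67. The pairs of opposite lines were sparse: PC-3p-68356_24 had 34 late-line counts in 2 libraries and its G7A variant PC-3p-64031_28 had 28 early-line counts in 3. PC-5p-81139_17 had 17 late-line counts in 1 library and its T13C variant PC-5p-111562_9 had 9 early-line counts in 1. Counts this close to the listing limit cannot show that a sequence is absent from a line.

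The strings of letters were listed by line as follows. Of all long candidates, 55.6% were listed in the late line alone and 13.8% in the early line alone. Of the 21 long candidates with TCCGACGG, 11 were listed in the late line alone and 1 in the early line alone, and of the 23 with AATCCCC, 7 and 9. For ACGTGGG the late line alone listed 7 of 11, and for GGCGCCGAG 6 of 7, with 0 in the early line alone for either. In summed CPM by library total, the AATCCCC set stood at 966, 898 and 97.2 in the early line at 6 h, and at 179, 88.8 and 164 in the late line at 6 h. The TCCGACGG set stood at 419, 477 and 0 in the early line at 6 h, and at 189, 178 and 0 in the late line at 6 h. With GA3 it stood at 360, 352 and 380, against 708, 193 and 0 without. In both sets the third early-line replicate at 6 h was far below the others, and the groups overlapped. These sums were not tested.

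Tests across sequences used edgeR's quasi-likelihood test on the counts of all 18 libraries with Benjamini-Hochberg adjustment over the 223 sequences that passed a filter on low counts. Of the 160 long candidates 24 passed that filter, and the other 136 were too sparse to test. A long candidate that passed through the group where it is high had to differ to some extent, so the counts below describe the 24. No long candidate passed an adjusted p of 0.05 in any of the 7 comparisons. The SE given with an edgeR change is the absolute change divided by the square root of the test's F value. It is worked back from the test and is no direct measure of error, above all where a group is at 0. The SE given with DESeq2 is that tool's own. Scaling by library totals in place of TMM moved the median log2 fold change of all sequences, late over early, from -0.30 to -1.03 at 6 h and from 0.11 to -0.78 at 53 h, so fold changes between the lines are relative to those medians.

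For GA3 against no GA3 in the late line at 53 h, the question of what gibberellin changes at a matched time, 0 of 24 long candidates passed, and 0% of all sequences tested did. At an unadjusted p under 0.05 there were 0 of the 24, beside 9 of all 223. The median log2 fold change of the 24 was 0.09, beside 0.00 for all 223. The lowest p was that of PC-5p-29266_104, at 0, 0 and 0 CPM with GA3 and at 29.5, 0 and 0 without, a fitted log2 fold change of -4.44 (SE 2.13, adjusted p = 1). It was listed in 3 of 3 late-line libraries at 6 h, at 118, 31.4 and 68.0 CPM.

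Between the lines at 6 h, 0 of 24 long candidates passed, where 6.73% of all sequences tested passed in either direction. At an unadjusted p under 0.05 there were 6 of the 24, beside 61 of all 223. The median log2 fold change, late over early, was -0.83 for the 24 and -0.30 for all. The lowest p belonged to PC-3p-24133_135, listed in 3 of 3 late-line and 0 of 3 early-line libraries (fitted log2 fold change 7.27, SE 2.59, adjusted p = 0.116). PC-5p-34939_81 was listed in 0 of 3 late-line and 3 of 3 early-line libraries (-7.54, SE 2.68, adjusted p = 0.123). Fitted changes against a group at 0 depend on the prior count of the fit and are no bounds.

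Between the lines at 53 h, 0 of 24 passed, against 10.8% of all sequences tested. At an unadjusted p under 0.05 there were 10 of the 24, beside 93 of all 223, and the median log2 fold change was 1.32 for the 24 and 0.11 for all. PC-5p-13694_258 had the lowest p, at 110, 77.3 and 0 CPM in the late line and at 0 in the 3 early-line libraries (fitted log2 fold change 6.96, SE 2.35, adjusted p = 0.0626). DESeq2 on the same counts called it (log2 fold change 5.44, SE 1.94, adjusted p = 0.0227). Without the filter on low counts, edgeR over 528 sequences called it (adjusted p = 0.0491) and also PC-3p-11302_318, at 53 h (adjusted p = 0.0301) and at 6 h (adjusted p = 0.0338). With the filter PC-3p-11302_318 had an adjusted p of 0.0937 at 53 h and 0.123 at 6 h. The filter and the tool therefore set these calls.

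Over time in the early line, 53 h against 6 h, 0 of 24 passed, against 1.35% of all sequences tested. An unadjusted p under 0.05 was found for 6 of the 24, beside 33 of all 223. The fitted change was above 0 in 1 of the 24 and in 76 of all 223, with a median log2 fold change of -1.50 beside -0.30 for all. These numbers include PC-3p-11302_318, PC-3p-24133_135 and PC-5p-35575_79, which no early-line library listed and whose fitted change was 0. The lowest p was again that of PC-5p-13694_258 (fitted log2 fold change -7.02, SE 2.36, adjusted p = 0.164), listed in 3 of 3 libraries at 6 h and 0 of 3 at 53 h. The 53 h libraries of the early line are shallower, with 42958 to 170517 counts against 160418 to 205757 at 6 h, and the part of depth was not tested.

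In the late line, 53 h against 6 h, 0 of 24 passed, against 1.79% of all sequences tested, with 1 of the 24 and 20 of all 223 at an unadjusted p under 0.05. From 53 h to 78 h, 0 of 24 passed, against 0% of all, with 2 of the 24 and 17 of all 223 at an unadjusted p under 0.05. The median log2 fold changes of the 24 were 0.43 and -1.17, beside 0.09 and -0.12 for all. PC-5p-34699_82, whose reverse complement overlaps PC-3p-6351_557 in the printed hairpin, had the lowest p in both. It stood at 0 in the 3 libraries at 6 h, at 92.4, 23.8 and 0 CPM at 53 h and at 0 in the 3 at 78 h (fitted log2 fold changes 6.28 and -6.28, SE 2.83 and 2.73, edgeR adjusted p = 0.479 and 0.486).

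The difference of the 6 h to 53 h change between the lines was tested directly. Again 0 of 24 long candidates passed, against 0% of all sequences tested. An unadjusted p under 0.05 was found for 4 of the 24, beside 17 of all 223. The fitted difference, late over early, was above 0 in 22 of the 24 and in 147 of all 223, with a median of 3.73 for the 24 and 0.64 for all on the log2 scale. In PC-3p-11302_318, PC-3p-24133_135, PC-5p-34939_81 and PC-5p-35575_79 a line was at 0 at both times (SE 816 to 12648). Their differences could not be estimated, although they are included in these numbers. The lowest p was that of PC-5p-34699_82, at 75.8, 89.4 and 0 CPM in the early line at 6 h and at 0 in its 3 libraries at 53 h (fitted difference of log2 fold changes 13.04, SE 4.03, edgeR adjusted p = 0.57). The comparisons share groups, so their values are not independent of one another.

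The degradome table listed 111 of the 160 long candidates, in 2510 pairings with transcripts. Reads at the predicted site were found for 110 of these (4.38%), from 16 long candidates on 41 genes or assembled loci. Sites are counted here for each transcript, so transcripts of the same gene can repeat a site. PC-5p-72660_21, PC-3p-92256_12 and PC-3p-41436_62 had 27, 18 and 16 of the 110. For the shorter candidates the share was 2.77% of 6057 pairings, and for the named small RNAs 14.7% of 33402. The authors' table sorts sites into categories from 0 to 4, in which, by the usual convention of such tables, low numbers stand for a peak that dominates the transcript. None of the 110 sites fell in category 0 or 1, while 53 fell in category 2, 9 in category 3 and 48, with 1 read each, in category 4. The shorter candidates also had 0 sites in categories 0 and 1, and of the 4920 sites of named small RNAs 1114 fell in category 0 and 66 in category 1. No site of a long candidate had a p-value under 0.05 in the authors' table, against 270 for the named small RNAs.

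**Figure D5:**
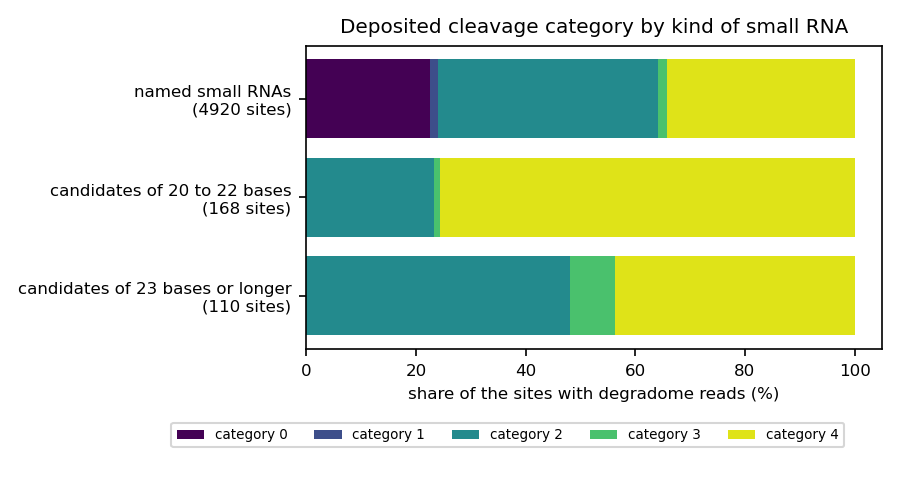
Share of the sites with degradome reads in each deposited cleavage category, in percent, for long candidates (110 sites), candidates of 20 to 22 bases (168 sites) and named small RNAs (4920 sites). Only the named bar has parts in category 0 (1114 sites) or 1 (66 sites). Sites are counted for each transcript, so transcripts of the same gene can repeat a site.

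In the authors' deposited table PC-3p-92256_12 had the lowest p, 0.106, at Zm00001d022485, annotated to inorganic ion transport, with 2 reads and a penalty of 4 in the alignment, where a lower value is a closer match. Sites of 3 long candidates, chosen after their values were seen, stood 10 bases apart on 1 transcript of Zm00001d012451, annotated to transcription.
PC-3p-72388_22: Aatccccctcaatccctatggttt
PC-3p-65010_27: Aatcccttccaatcctcctcaatc
PC-3p-29623_103: Aatcctcttcaatcccctccaatc
Their sites were at transcript positions 1206, 1216 and 1226, with 7, 10 and 3 reads, penalties of 0, 0.5 and 2 and p-values of 0.536, 0.511 and 0.43 in the authors' deposited table. Their alignments overlap, so the sites are not independent. The first of the 3 was listed in 2 early-line libraries alone. The most reads at a site of a long candidate were 25, for PC-5p-72660_21 at Zm00001d048176, with a penalty of 4 and a p of 1 in the authors' deposited table.

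By words in the deposited annotation, 0 of the 2510 pairings named a transposon term and 0 a germination term (gibberellin, abscisic acid, amylase, late embryogenesis and the like), beside 2 and 48 of 41969 pairings in the whole table. A silencing or methyltransferase term was in 94 pairings (3.75%), beside 614 (1.46%) of the whole table. The pairings of long candidates also carried a transcript description more often, 393 of 2510 against 3177 of 41969, so the 2 percentages are not on the same footing. Of these, 66 were 6 long candidates on 11 transcripts of 1 locus annotated as the histone methyltransferase EZH2, a Polycomb protein. The 94 pairings had no degradome reads.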

How the data were processed

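Small RNAs were measured in 18 libraries. The small RNA table holds expected counts deposited by the authors, in which a sequence's reads are divided over its precursor entries, with lengths as an other measure and a deposited score for the fold (energy and index). The authors deposited the degradome table with read counts per site, an alignment score, a cleavage category as an other measure, and a p-value per site not described as adjusted. Neither the mapping tools nor a genome build was stated, and both tables were held in part.

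Entries were summed per sequence and rounded. Named sequences with a shared stem and equal values were merged. edgeR 4.0.16 in R 4.3.3 (TMM scaling, filterByExpr with a minimum count of 10, 1 mean per group over all 18 libraries, two-sided quasi-likelihood test, Benjamini-Hochberg over the sequences tested, threshold 0.05) gave the main test, with DESeq2 1.42.0 as an alternative. Sequence features were computed in Python 3.11.15 with pandas 2.3.3. The fits were tested on simulated data. The design text calls the samples biological replicates and does not say what a replicate number marks. Residuals of libraries with 1 number had correlations of 0.448, 0.187 and 0.308 for the late line at 78 h against 53 h, and no other comparison had each above 0.1.

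Long candidates named are the 10 with the highest mean CPM, the one with the lowest p in each comparison, and near copies, and others were named after their values were seen. The members and lists were chosen with earlier results of these data known. Totals ran from 42958 to 818814 counts. Intervals are exact 95% binomial intervals on listed counts.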

Additional observations from a re-analysis of the deposited data

How the results depend on the processing

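Of 104 alternatives for the counts of long candidates past the test, 101 gave the main count of 0. Without the filter on low counts 1 was called between the lines at 6 h and 2 at 53 h, and DESeq2 called 1 at 53 h. Leaving out 1 library of the groups compared gave 0 to 0 in each comparison, libraries of the other groups were not left out, and the replicate block also left 0, so the pairing of like-numbered libraries changed no call. Taking the highest entry of a sequence in place of the sum raised the share of counts in long candidates to 0.874% (early line, 6 h), 0.305% (early line, 53 h), 0.249% (late line, 6 h), 0.508% (late line, 53 h), 0.15% (late line, 78 h) and 0.496% (GA3); the cause was not tested. Leaving out 1 library moved the share between 0.245 and 0.412%, 0.0606 and 0.152%, 0.1 and 0.11%, 0.0701 and 0.283%, 0.03 and 0.076%, and 0.185 and 0.193% in the same order. Of 120 alternatives for mean levels, 4 moved by more than the replicate spread, all in the early line at 6 h with library totals, and 0 turned. The 3 degradome alternatives stayed within the limit. Fits and listings without the libraries that list no long candidate, or without the deepest, and the common level of 80.8 CPM by library total were chosen after seeing the data. Depth limits what can be listed: 8 counts are 9.8 to 186.2 CPM.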
